A study of Rattus norvegicus with 36 samples.

Results

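The comparison described here is that of the highest 131I activity of the series, 4700 kBq, with the non-irradiated controls. It was chosen from the sample labels: 4 arrays carried 4700 kBq and 4 carried 0 kBq, 8 of the 36 arrays of the series, and all 30367 non-control probes were compared. All rats were adult male Sprague Dawley rats. Na131I in saline, or saline alone for the controls, was injected into a tail vein, the rats were killed 24 h later, and RNA of each thyroid was hybridized to 1 Agilent 1-colour rat array, without pooling. The other 28 arrays came from rats that received 9, 88, 170, 260, 340, 760 or 1300 kBq, with 4 rats per activity. The groups were injected in order of activity and the controls received their mock injection last, so that these 2 groups lay next to each other in this order. Rats were kept 4 to a cage, and if the cages followed the groups, cage and group cannot be told apart.

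The thyroid concentrates iodide through the sodium iodide symporter of its follicular cells, so that radioiodine irradiates these cells from within the gland, mainly by beta particles that reach across several cell layers and into the tissue around the follicles. Breaks in DNA activate the kinase ATM, which stabilizes the transcription factor p53. p53 then raises the transcription of genes for cell cycle arrest, DNA repair and apoptosis, and also of *Mdm2*, whose product marks p53 for degradation and thereby closes a feedback loop.

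Levels are given as the log2 processed intensity of a probe minus the 75th percentile of its array, so that a level can be compared between rats for 1 probe and not between probes, and differences are the mean of the 4700 kBq rats minus the mean of the controls on this log2 scale. The precision was limited by the number of arrays. Among the 8 arrays, between 69.3% (0 kBq rat 3) and 80.0% (0 kBq rat 4) of the spots were well above background by the scanner software's call. The 36 arrays lay on 5 slides, and of the 8 arrays slide 1 held rats 3 and 4 of both groups, while slide 5 held rat 1 of both groups.

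The thyroid identity of the samples was checked with 23 measured follicular genes. *Tg*, which codes for thyroglobulin, had levels of 7.05, 6.80, 4.11 and 6.94 in 4700 kBq rats 1 to 4 and of 6.96, 6.89, 3.18 and 7.37 in control rats 1 to 4. Rat 3 of each group was therefore low in follicular transcripts, and the mean level of the 23 genes was -3.61 and -3.35 in these 2 rats against 0.16 to 1.53 in the other 6. In whole tissue, fewer cells of a type cannot be told apart from less RNA per cell. Control rat 3 also carried the highest levels of the lists for squamous epithelium (2.27) and cartilage (0.18) among the 8 arrays. Control rat 2 carried the lymphocyte and thymocyte list at 0.42, against -6.78 to -4.83 in the other 7, and *Rag1*, the recombinase of immature lymphocytes, at 2.86. *Pth*, the parathyroid hormone, had levels of 6.55, 6.43, 2.12 and 6.45 in the 4700 kBq rats and of -6.80, 6.46, -7.81 and 4.04 in the controls, so that parathyroid tissue was on 6 of the 8 arrays. Values are therefore also given without rat 3 of both groups where the result rests on them, a choice made after the values had been seen.

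**Figure D1:**
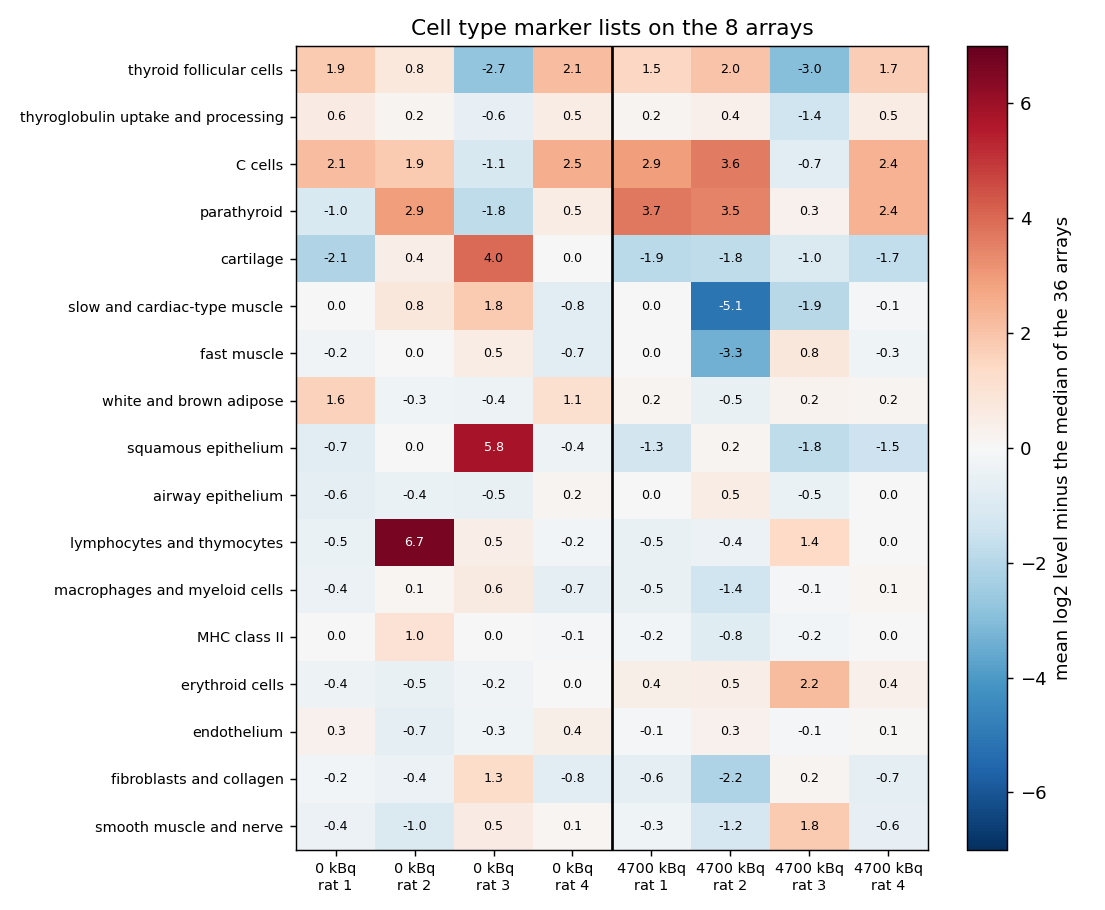
Mean log2 level of each cell type marker list (rows) on the 8 arrays (columns), relative to the median of the list over the 36 arrays, with the value printed in each cell. Follicular markers are low in rat 3 of both groups, squamous and cartilage markers are high in control rat 3, and lymphocyte and thymocyte markers are high in control rat 2.

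Limits were set on the p-value and, at 1.5-fold in either direction, on the size of the difference. With the adjusted limit of the study's methods, 0.01, 0 of the 30367 probes were regulated at 4700 kBq in the limma fit. With an adjusted limit of 0.05, 6 probes were regulated, 0.0198% of all probes, and all 6 were higher at 4700 kBq. They were both probes of *Mdm2* and the probes of *Pln*, *Slc4a1* and *Svop*, and 1 probe with no gene symbol here. The 6 adjusted p-values were between 0.0332 and 0.0364. With an unadjusted limit of 0.01, 75 probes (0.247%) were higher and 14 (0.0461%) were lower, and 503 probes (1.66%) had an unadjusted p-value under 0.05. The 2 groups did not overlap for 217 probes that were higher (0.715%) and 168 that were lower (0.553%) at 4700 kBq. The median difference over all probes was 0.09. When rat 3 of both groups was left out, 8 probes passed the limit of 0.05, 5 of the 6 together with 1 probe each of *Aen*, *Abcb1b* and *Mybl1*. Leaving out 1 rat at a time, the count was 5 without 4700 kBq rat 3 (3 of the 6, with *Aen* and *Mybl1*), 1 without control rat 1 (A_64_P076200, lower at 4700 kBq and not among the 6), 1 without control rat 3 (*Mdm2*), and 0 without 4700 kBq rat 1, 2 or 4 or control rat 2 or 4. With slide or scan day as a block it was 0. The 6 probes kept their direction and an unadjusted p-value under 0.01 in all of these fits.

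**Figure D2:**
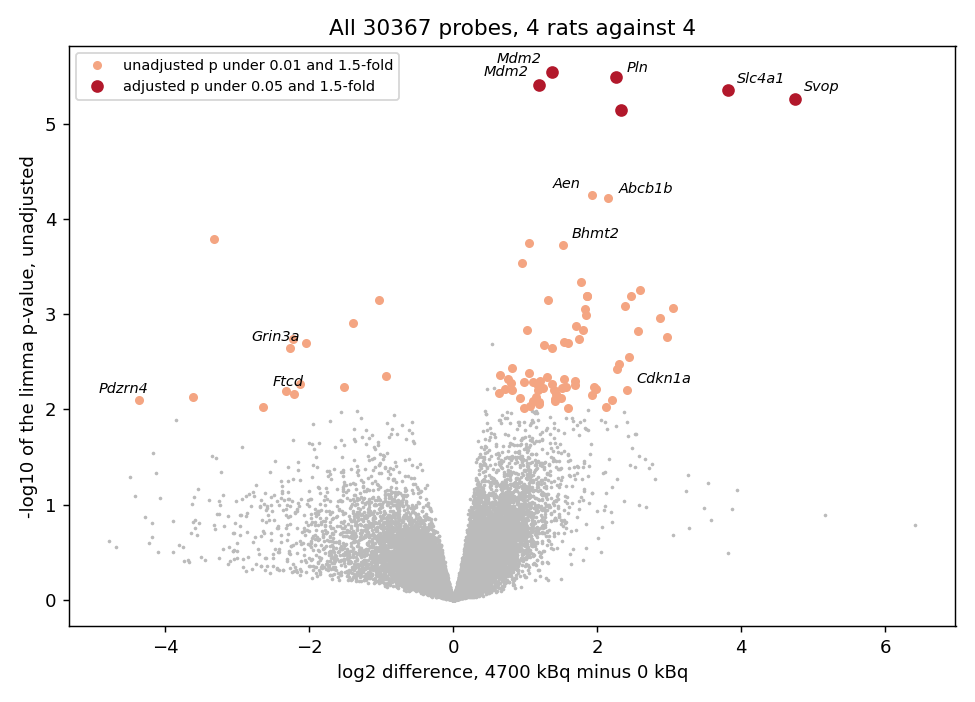
Difference (log2, 4700 kBq minus 0 kBq) against the -log10 of the unadjusted limma p-value for all 30367 probes. The 6 red points passed an adjusted p-value of 0.05 and all lie on the right, and of the 89 points past an unadjusted p-value of 0.01 with a fold change of at least 1.5, 75 lie on the right.

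Among p53 targets, the feedback gene *Mdm2* rose on both of its probes. On probe A_44_P634946 its level was 1.30, 1.67, 1.11 and 0.85 in 4700 kBq rats 1 to 4 and -0.41, -0.07, 0.38 and -0.47 in control rats 1 to 4. All 4 irradiated rats, rat 3 included, lay above all 4 controls, and the highest control was rat 3. The difference was 1.38 (SE 0.24), a 2.59-fold higher level with an adjusted p-value of 0.0332. On probe A_43_P16885 the levels were -1.24, -1.12, -1.36 and -1.58 at 4700 kBq and -2.43, -2.41, -2.21 and -3.02 in the controls, again without overlap, and the difference was 1.19 (SE 0.21). Within slides the difference on probe A_44_P634946 was 1.02 on slide 1 and 1.71 on slide 5. With slide as a block the unadjusted p-value of this probe was 7.58e-06 and the adjusted p-value 0.125.

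*Aen*, which codes for a nuclease of p53-dependent apoptosis, had levels of 3.08, 3.46, 1.30 and 3.26 in the 4700 kBq rats and of 0.86, 1.03, 0.997 and 0.53 in the controls. The groups did not overlap, but 4700 kBq rat 3 lay just above the controls and the other 3 lay well above them. The difference was 1.92 (SE 0.41), a 3.79-fold higher level, and it missed the limit with an adjusted p-value of 0.232. On leaving out rat 3 of both groups the difference was 2.46 and the adjusted p-value 0.0163. The other probe of *Aen* differed by 1.74 (SE 0.51), with 4700 kBq rat 3 among the controls.

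*Cdkn1a*, the cyclin-dependent kinase inhibitor p21 that holds cells before DNA replication, had levels of 4.92, 4.99, 0.99 and 4.55 at 4700 kBq and of 0.18, 0.76, 3.25 and 1.61 in the controls on probe A_44_P914438, the probe with the higher mean over the 36 arrays. Rats 1, 2 and 4 of the irradiated group lay above every control, whereas 4700 kBq rat 3 lay among the controls and control rat 3 was the highest control. The difference was 2.41 (SE 0.82, unadjusted p = 0.00628) and became 3.97 without rat 3 of both groups, with an adjusted p-value of 0.0618. Within slides it was 0.34 on slide 1, which held both rats 3, and 4.74 on slide 5. The other probe of the gene, A_64_P123895, gave 0.24 (SE 0.30), so that the 2 probes of *Cdkn1a* disagreed in size.

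Of 50 listed p53 targets 40 were measured, with 1 probe per gene. The list was chosen with earlier results of these data known, so the shares given beside it are descriptive and not a test. Of the 40, 5 (12.5%) were higher by the unadjusted limit, and 0 were lower, beside 0.172% higher and 0.0462% lower among all 15154 named genes. The median difference was 0.10 over the 40 genes and 0.06 over all named genes. The 5 genes were *Mdm2*, *Cdkn1a*, *Aen*, *Rrm2b* and *Mgmt*. When the probe of each gene was chosen by its mean over the controls, a choice made after the values had been seen, the other probe of *Cdkn1a* was taken, and 4 of the 40 were higher, beside 0.165% of all named genes. *Mgmt*, which removes alkyl groups from guanine in DNA, had levels of 1.36, 1.62, -0.49 and 1.74 and of -0.19, 0.18, 0.47 and -0.51, with rat 3 the lowest of the irradiated and the highest of the control rats, and differed by 1.07 (SE 0.38, unadjusted p = 0.00920). *Rrm2b*, the p53-inducible subunit of ribonucleotide reductase, had levels of -5.88, -5.34, -4.63 and -5.85 and of -5.98, -6.46, -6.31 and -6.19. Its groups did not overlap, and 4700 kBq rat 3 was here the highest rat. Without rat 3 of both groups the difference of *Rrm2b* changed from 0.81 to 0.52 (unadjusted p = 0.0802). At an unadjusted p-value under 0.05, which 1.37% of all named genes met in either direction, 9 of the 40 were higher and 0 were lower, and 4 of the 40 were higher without overlap between the groups, as were 0.673% of all named genes. The additional 4 were the kinase gene *Plk2* (difference 1.72, SE 0.66), *Tp53inp1* (1.07, SE 0.45), *Bax* (0.69, SE 0.29), whose product opens the outer mitochondrial membrane, and *Ei24* (0.47, SE 0.18). Of these, *Ei24* had groups that did not overlap. On leaving out 1 rat each of these 4 genes had an unadjusted p-value above 0.05 in at least 1 case, for instance 0.103 for *Bax* and 0.0962 for *Tp53inp1* without 4700 kBq rat 2.

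By role, the list of arrest and feedback targets had a median difference of 0.44 over 18 genes, that of apoptosis and death receptor targets 0.01 over 14 and that of DNA repair targets 0.05 over 8. On leaving out 1 rat the first ranged from 0.33 (without 4700 kBq rat 1) to 0.62 (without 4700 kBq rat 3), the second from -0.08 (without 4700 kBq rat 2) to 0.16 (without control rat 2) and the third from -0.04 (without control rat 3) to 0.12 (without control rat 2). The mean level of the arrest and feedback list was -0.68, -0.74, -1.72 and -0.87 in the 4700 kBq rats and -1.49, -1.42, -1.23 and -1.63 in the controls, and 4700 kBq rat 3, with few follicular transcripts, was the lowest of all 8. After omission of rat 3 of both groups, 8 of the 40 targets were higher at an unadjusted p-value under 0.01, 4 of the 5 without *Rrm2b* among them, beside 0.366% of all probes, and with the level of the follicular list as a covariate 8 were higher beside 0.402%. With slide as a block 2 were higher, *Aen* and *Mdm2*, beside 0.181%, and the lowest count on leaving out 1 rat was 2, without 4700 kBq rat 2 or control rat 2. In the apoptosis list 7 of 14 differences were positive, and *Fas*, the death receptor, differed by 0.06 (SE 0.88).

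**Figure D3:**
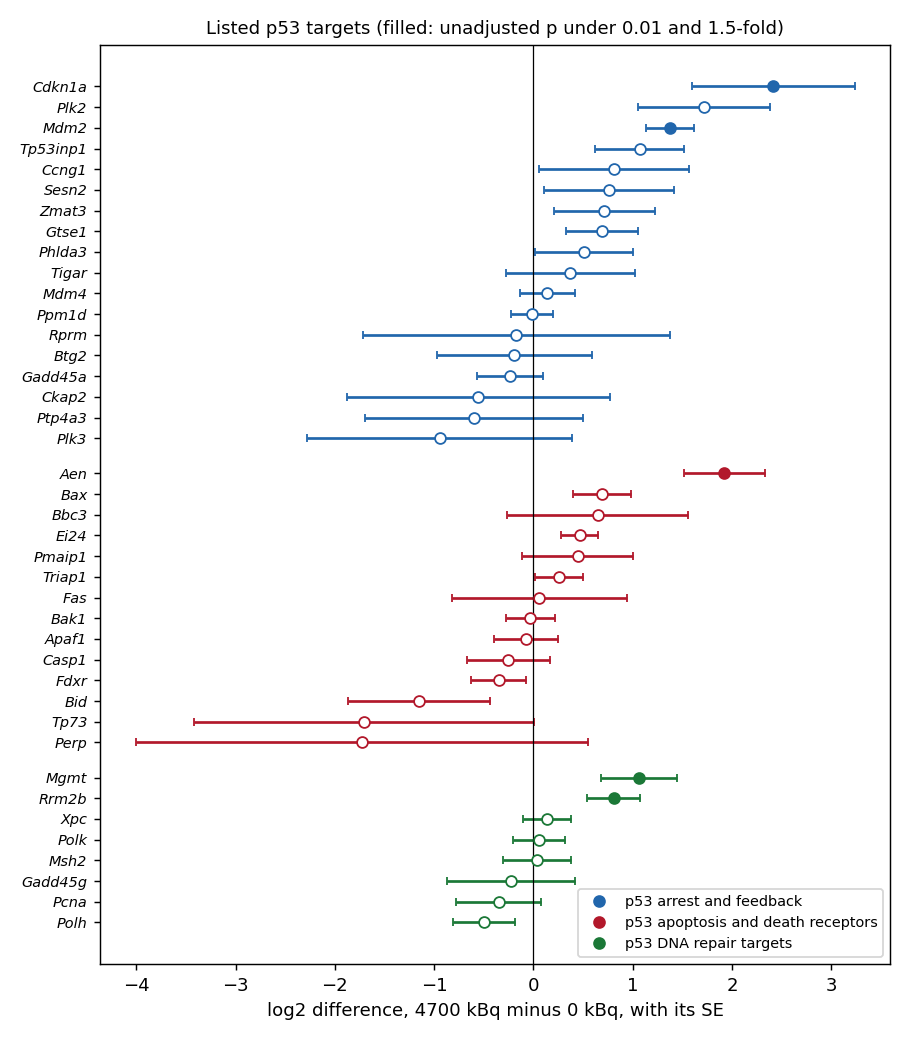
Difference (log2, 4700 kBq minus 0 kBq) with its SE for the 40 measured p53 targets, grouped by role. Filled points passed an unadjusted p-value of 0.01 with a fold change of at least 1.5, and these 5 lie to the right of 0.

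The sequences around the annotated gene starts are shown for the p53 targets *Mdm2*, *Cdkn1a* and *Aen*, the feedback, arrest and apoptosis genes described above, and for *Pln*, which rose without being on a p53 list. They are RefSeq sequences of the GRCr8 build from 250 bases before to 50 bases after the start, on the strand of the gene, and matches to the p53 half-site consensus of 10 bases, which reads the same way on both strands, are in capitals. *Mdm2* is on the minus strand at chr7:55200742-55201041, *Cdkn1a* on the plus strand at chr20:7150682-7150981, *Aen* on the plus strand at chr1:142224283-142224582 and *Pln* on the plus strand at chr20:33172244-33172543.
Mdm2: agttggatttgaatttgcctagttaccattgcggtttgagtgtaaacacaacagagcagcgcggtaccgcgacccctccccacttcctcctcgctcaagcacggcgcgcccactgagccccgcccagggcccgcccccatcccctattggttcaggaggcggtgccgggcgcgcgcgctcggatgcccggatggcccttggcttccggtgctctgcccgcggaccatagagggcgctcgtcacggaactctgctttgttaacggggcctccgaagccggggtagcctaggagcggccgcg
Cdkn1a: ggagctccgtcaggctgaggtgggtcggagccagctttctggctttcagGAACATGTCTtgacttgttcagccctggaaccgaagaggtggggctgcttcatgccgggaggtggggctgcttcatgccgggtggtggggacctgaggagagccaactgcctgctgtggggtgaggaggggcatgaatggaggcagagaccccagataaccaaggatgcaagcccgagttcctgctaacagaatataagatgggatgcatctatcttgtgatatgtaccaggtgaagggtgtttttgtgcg
Aen: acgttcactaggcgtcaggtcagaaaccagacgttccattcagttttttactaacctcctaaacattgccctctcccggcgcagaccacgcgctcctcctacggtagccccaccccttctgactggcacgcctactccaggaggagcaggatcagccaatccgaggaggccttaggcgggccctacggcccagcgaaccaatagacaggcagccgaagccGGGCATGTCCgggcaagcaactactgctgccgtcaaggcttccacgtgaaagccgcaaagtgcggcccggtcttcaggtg
Pln: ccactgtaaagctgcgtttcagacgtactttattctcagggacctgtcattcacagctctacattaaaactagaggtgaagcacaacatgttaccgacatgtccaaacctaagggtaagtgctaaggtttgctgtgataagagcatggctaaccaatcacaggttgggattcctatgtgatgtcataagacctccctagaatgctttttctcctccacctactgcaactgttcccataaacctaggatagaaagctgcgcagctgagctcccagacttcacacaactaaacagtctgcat

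The windows of *Cdkn1a* and *Aen* each held 1 half-site match, GAACATGTCT with its first base at position -201 relative to the start and GGGCATGTCC with its first base at position -30. Those of *Mdm2* and *Pln* held 0. Among 33469 promoter windows of this length, 7.98% held at least 1 match, and among the 33 measured p53 targets with a window 7 did (21.2%). The first share was counted per window and the second per gene, with a match in any window of the gene, so they are not strictly alike. These are matches of letters and not measured binding sites, and a window without a match says nothing about sites elsewhere in the gene. For *Slc4a1* no window was used here.

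**Figure D4:**
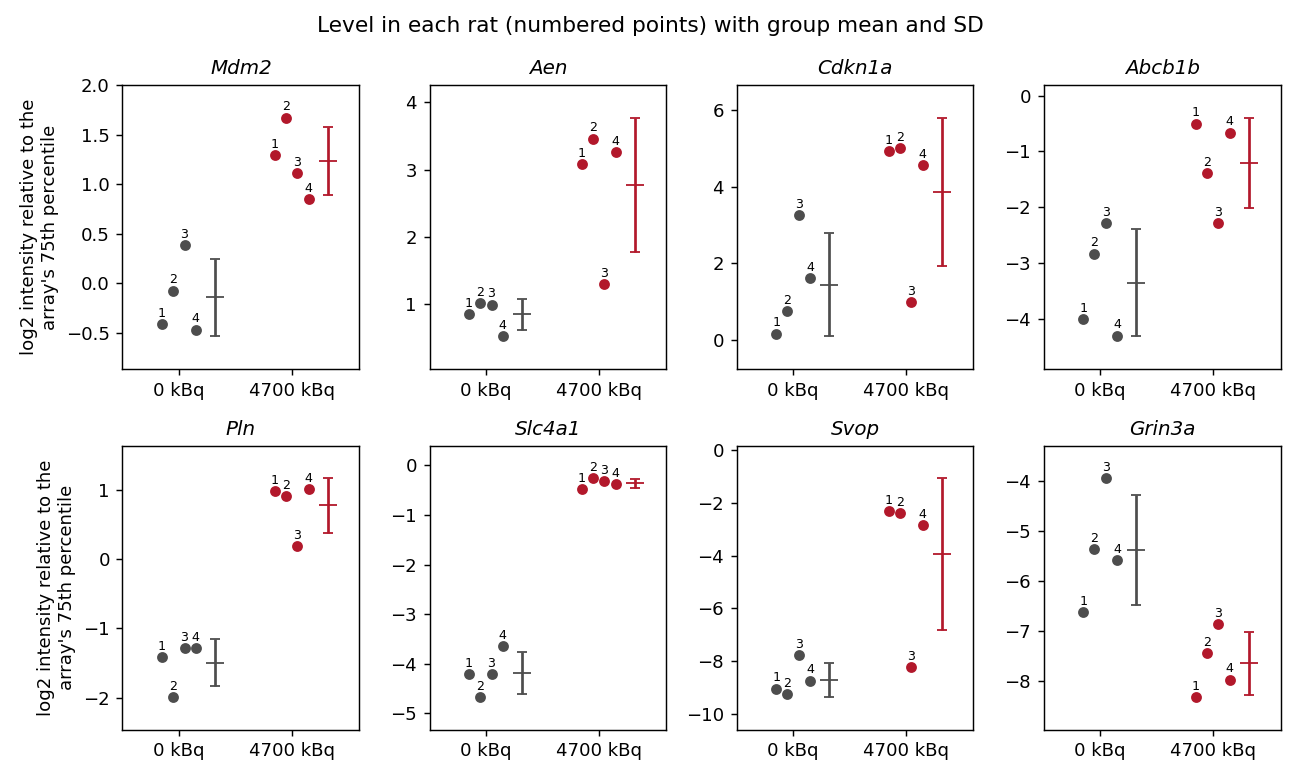
Level (log2 intensity relative to the 75th percentile of the array) of 8 genes in each control (grey) and each 4700 kBq rat (red), numbered by rat, with the mean and SD of the group at the right of the points. *Mdm2*, *Aen*, *Pln*, *Slc4a1* and *Grin3a* do not overlap between the groups, and rat 3 of the 4700 kBq group is the lowest irradiated rat for *Aen*, *Cdkn1a*, *Abcb1b*, *Pln* and *Svop*.

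*Pln*, which codes for phospholamban, the inhibitor of the calcium pump SERCA of the sarcoplasmic reticulum, rose 4.80-fold. Its levels were 0.97, 0.91, 0.19 and 1.01 in the 4700 kBq rats and -1.41, -1.98, -1.28 and -1.29 in the controls. All irradiated rats lay more than 1 unit above all controls, with rat 3 the lowest. The difference was 2.26 (SE 0.39) with an adjusted p-value of 0.0332, and within slides it was 1.88 on slide 1 and 2.39 on slide 5. It was 2.52 without rat 3 of both groups.

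Of 15 measured genes of calcium handling in muscle, 4 differences were positive and 11 negative, with a median of -0.34, and *Pln* was the 1 member past the unadjusted limit of 0.01, beside 0.172% higher and 0.0462% lower among all named genes. On leaving out 1 rat the median of this list ranged from -0.99 (without 4700 kBq rat 3) to 0.55 (without 4700 kBq rat 2). *Atp2a2*, the pump that phospholamban inhibits, had levels of 2.61, 0.96, 1.61 and 2.99 at 4700 kBq and of 2.87, 3.36, 4.40 and 1.76 in the controls, with overlapping groups. *Sln*, which codes for the related pump inhibitor sarcolipin, had levels of -3.02, -3.21, 2.82 and -2.01 and of -1.23, 3.22, 6.66 and 2.70. Muscle was unevenly present: the slow and cardiac-type muscle list had mean levels of 2.81, -2.29, 0.87 and 2.71 in the 4700 kBq rats and of 2.80, 3.62, 4.64 and 2.0 in the controls, with a median difference of -2.68 (-1.26 without 4700 kBq rat 2). In 4700 kBq rat 2, where this list was lowest, *Myh7*, the slow myosin heavy chain, was at -4.79 and *Pln* at 0.91. The part of muscle RNA in the difference of *Pln* was not tested.

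*Slc4a1*, the anion exchanger known as band 3 of the red cell membrane, rose 14.1-fold. Its levels were -0.48, -0.26, -0.32 and -0.38 in the 4700 kBq rats and -4.21, -4.67, -4.20 and -3.64 in the controls. The irradiated rats lay close together and far above the highest control. The difference was 3.82 (SE 0.68) with an adjusted p-value of 0.0332, and within slides it was 3.58 on slide 1 and 3.73 on slide 5. Without rat 3 of both groups it was 3.80, with an adjusted p-value of 0.171.

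Of the 13 measured erythroid genes *Slc4a1* was the 1 that passed, beside 0.0264% of all named genes. The mean level of the list was -2.47, -2.43, -0.71 and -2.55 in the 4700 kBq rats and -3.29, -3.45, -3.14 and -2.93 in the controls, and all 13 differences were positive with a median of 0.80. Rat 3 of the 4700 kBq group stood out for other members: *Alas2*, the first enzyme of haem synthesis in red cell precursors, had levels of -1.21, -1.34, 3.78 and -0.40 and of -2.11, -2.48, -0.54 and -1.19, and *Hemgn* had -7.84, -8.59, -2.34 and -8.21 and -8.82, -9.25, -6.72 and -9.29. Without rat 3 of the 4700 kBq group the median of the list was 0.31. The haemoglobin gene *Hba-a1*, an abundant transcript of blood, had levels of 5.85, 5.54, 7.81 and 6.31 and of 5.38, 5.23, 6.89 and 5.76, with overlapping groups. The level of *Slc4a1* was thus not highest in the rat in which the other erythroid genes were highest, and the part of blood cells in its difference was not tested.

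*Svop*, which codes for a transporter-like protein of synaptic vesicles, had levels of -2.31, -2.41, -8.23 and -2.84 in the 4700 kBq rats and of -9.03, -9.25, -7.78 and -8.73 in the controls. It was well above background on 3 of the 4 irradiated arrays and on 0 of the 4 control arrays, and 4700 kBq rat 3 lay among the controls. Measured against the detection floor of the control arrays, its mean level at 4700 kBq was at least 6.89-fold higher, and the adjusted p-value was 0.0332. On leaving out 1 rat this bound was between 4.72-fold (without 4700 kBq rat 1) and 18.5-fold (without 4700 kBq rat 3). Without rat 3 of both groups the adjusted p-value was 4.47e-06. For this bound the mean of the irradiated rats over all 4 rats was set against the higher of the control signal and the lowest signal well above background on each control array. The probe A_64_P031742, which has no gene symbol here, had levels of -3.47, -3.29, -3.98 and -3.71 and of -6.51, -5.61, -5.31 and -6.34, without overlap, and rose 5.04-fold (difference 2.33, SE 0.43, adjusted p-value 0.0364).

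*Abcb1b*, a rodent gene of the multidrug efflux pump P-glycoprotein, had levels of -0.50, -1.39, -2.29 and -0.66 at 4700 kBq and of -4.01, -2.83, -2.28 and -4.30 in the controls. In the irradiated group rat 3 was the lowest and in the controls rat 3 was the highest, and these 2 rats had nearly the same level. The difference was 2.15 (SE 0.46) with an adjusted p-value of 0.232. Without rat 3 of both groups it was 2.86 with an adjusted p-value of 0.0163. The second probe differed by 2.41 (SE 0.92), and the paralogue *Abcb1a* was not well above background on any of the 8 arrays. Of the 12 transporters listed, 4 differences were positive and 8 negative, with a median of -0.56 that ranged from -0.84 (without control rat 4) to -0.11 (without control rat 2) on leaving out 1 rat. *Abcc4* had a difference of 0.66 (SE 0.30, unadjusted p = 0.0365), and its unadjusted p-value was 0.126 without control rat 2. *Slc47a2*, a proton-coupled exporter of organic cations, was not well above background on any 4700 kBq array and on 3 of the 4 control arrays. Control rat 2 carried it at -5.86, so no fold change is given.

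Named genes past the unadjusted limit with no overlap between the groups were also described, at most 12 per direction. They had to be well above background on all 4 arrays of at least 1 group. Apart from the genes regulated after adjustment, these were 9 higher and 3 lower genes, so that by this choice 0 of the 12 passed after adjustment. Among all 15154 named genes, 0.172% were higher and 0.0462% lower by the unadjusted limit. The groups did not overlap for 0.673% that were higher and 0.699% that were lower. After *Aen*, the smallest p-value was that of *Bhmt2*, a methyltransferase that forms methionine from homocysteine, with levels of -4.44, -3.59, -3.49 and -4.26 and of -5.63, -5.67, -5.77 and -4.79 and a difference of 1.52 (SE 0.36, adjusted p-value 0.517). *MGC116197*, a locus of 4 probes, had levels of -2.96, -2.81, -3.90 and -3.18 and of -5.71, -4.44, -4.23 and -5.69 on the probe with the smallest p-value. The groups did not overlap on 3 of the 4 probes, and the remaining one, A_64_P156827, differed by -0.30 (SE 0.83). *Thyn1*, which codes for a nuclear protein first described in thymocytes, differed by 0.77 (SE 0.25), with an SD of 0.08 between the irradiated rats. The others were *Atp7a*, a copper transporter (0.65, SE 0.21), *Susd4*, a regulator of complement (1.42, SE 0.49), *Slc35f1* (1.42, SE 0.50), the beta-defensin *Defb25* (0.98, SE 0.35), *Rrm2b* and *Aen*. For *Atp7a*, *Susd4*, *Slc35f1*, *Rrm2b* and *Aen* the mean of every irradiated group, that at 9 kBq included, lay above that of the controls. *Atp7a* had a mean of -1.31 in the controls, -0.82 at 9 kBq and -0.66 at 4700 kBq. This was not so for *Bhmt2*, *MGC116197*, *Thyn1* and *Defb25*. *Susd4* had levels of -2.43, -5.38, -4.85 and -4.81 and of -5.91, -5.65, -5.95 and -5.66, with 4700 kBq rat 1 far above the others, and without this rat its difference was 0.78 (unadjusted p = 0.0832). On leaving out 1 rat at a time, 10 of the 12 genes kept an unadjusted p-value under 0.05 in every case and 3 kept it under 0.01. The exceptions to the first were *Susd4* and *Pdzrn4*.

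In the lower direction, *Grin3a*, a subunit of the NMDA receptor, had levels of -8.31, -7.44, -6.85 and -7.96 at 4700 kBq and of -6.61, -5.37, -3.95 and -5.59 in the controls. It was not well above background on any irradiated array, so that it was at least 2.10-fold lower, at an unadjusted p-value of 0.00229. Its other probe, A_64_P154352, differed by -0.85 (SE 0.48) with overlapping groups. *Pdzrn4*, which codes for a protein with PDZ and RING domains, had levels of -6.92, -8.95, -8.35 and -8.68 and of -5.90, -0.25, -3.81 and -5.50, was likewise not well above background at 4700 kBq and was at least 6.01-fold lower, with control rat 2 far above the other controls. Without control rat 2 this bound was 2.61-fold, and without rat 3 of both groups and control rat 2 the unadjusted p-value of *Pdzrn4* was 0.209. *Ftcd*, an enzyme of histidine and folate metabolism, had levels of -5.74, -5.04, -7.70 and -5.91 and of -4.77, -2.93, -3.11 and -4.74. Without rat 3 of both groups and control rat 2 its difference changed from -2.21 to -0.81.

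Genes of the cell cycle had lower levels at 4700 kBq in 28 of 30 measured members. The median difference was -1.45 against 0.06 over all named genes. However, 0 of the 28 passed an unadjusted p-value of 0.01, beside 0.0462% lower among all named genes. The mean level of the list was -4.02, -3.73, -3.65 and -3.73 in the 4700 kBq rats and -3.21, -0.15, -3.14 and -3.17 in the controls. The groups did not overlap, control rat 2, the rat with high thymocyte markers, lay far above all others, and the other 3 controls were close to each other. For 11 of the 30 genes the 4 irradiated rats lay below all 4 controls, beside 0.699% of all named genes. *Cdk1*, the kinase that drives mitosis, had levels of -3.21, -2.75, -2.89 and -2.49 and of -1.56, 1.93, -1.34 and -1.39, and *Ccnb1*, its cyclin, had -5.33, -5.43, -5.44 and -4.77 and -3.99, -0.03, -3.20 and -3.94. *Mcm6*, a subunit of the replicative helicase, had -5.69, -5.56, -5.72 and -5.19 and -3.92, -1.20, -4.90 and -4.34 and differed by -1.95 (SE 0.90, unadjusted p = 0.0385), or by -1.15 (unadjusted p = 0.214) without control rat 2. Without control rat 2 the median difference of the list was -0.74, and within slides, where control rat 2 had no partner, the list differed by -0.54 on slide 1 and -0.80 on slide 5. At 1300 kBq the list mean was -3.71 ± 0.43 (SD, n = 4), close to the -3.78 ± 0.16 at 4700 kBq, and in the remaining irradiated groups it was between -2.96 ± 1.63 and -1.21 ± 1.97.

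Of the 2 members of the cell cycle list with positive differences, 1 was *Tpx2*, a spindle assembly factor, with levels of -1.03, -0.85, 0.64 and -3.01 at 4700 kBq and of -3.61, -1.02, -4.05 and -4.07 in the controls and a difference of 2.12 (SE 0.76, unadjusted p = 0.00945). Its groups overlapped through control rat 2. The difference of *Tpx2* was 1.27 (unadjusted p = 0.146) without rat 3 of both groups. The other was *Tyms*, the thymidylate synthase (0.85, SE 0.77). In the list of DNA damage signalling and repair 0 of 24 measured genes had an unadjusted p-value under 0.05, beside 1.37% of all named genes. Differences in this list were between -1.36 and 0.51.

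Among genes of the immune response, 3 of 8 measured genes of MHC class II antigen presentation had lower levels at an unadjusted p-value under 0.05, which 1.37% of all named genes met in either direction. *Cd74*, the invariant chain, had levels of 1.78, 0.83, 1.86 and 2.25 and of 2.38, 3.56, 2.42 and 2.20, and *RT1-DMb* had -1.39, -1.11, -1.33 and -0.80 and -0.57, -0.30, -0.56 and -0.54 without overlap. Control rat 2 was the highest of the 8 rats for both. Without it 0 of the 8 genes remained under 0.05, as with slide as a block, without 4700 kBq rat 2 the count was 1, and the median of the list changed from -0.70 to -0.34. Of 22 cytokine and chemokine genes, *Ccl2*, which attracts monocytes, had an unadjusted p-value under 0.05 (1.30, SE 0.51, and 0.90 with an unadjusted p-value above 0.05 without 4700 kBq rat 4), and of 29 interferon and antigen processing genes 0 did. *Gdf15*, a stress-induced cytokine, had levels of 2.71, 4.08, -4.79 and 3.75 at 4700 kBq and of -1.64, -2.88, -4.41 and -1.07 in the controls and differed by 3.93 (SE 2.10, unadjusted p = 0.0706). It was high in 4700 kBq rats 1, 2 and 4 and low in rat 3.

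Genes of thyroid hormone synthesis did not differ beyond the spread between rats. Of the 23 follicular genes 14 differences were positive and 9 negative, with a median of 0.12. An unadjusted p-value under 0.05 was met by 0 of the 23, beside 1.37% of all named genes. *Slc5a5*, the sodium iodide symporter, had levels of 1.22, 3.02, -5.89 and 2.80 at 4700 kBq and of 2.54, 0.70, -6.93 and 3.54 in the controls. *Pax8*, a transcription factor of follicular cells, had 2.77, 3.31, -4.43 and 2.53 and 2.97, 1.79, -4.999 and 4.28, and *Tshr*, the receptor of thyrotropin, had 1.71, 2.57, -2.08 and 1.999 and 2.63, 0.90, -3.12 and 2.93. In each of these genes rat 3 of both groups was the lowest of its group, and the SE of the difference was between 1.95 and 3.18 for *Tshr*, *Pax8*, *Slc5a5* and *Tg*, so that differences of several units would not have been detected. With rat 3 of both groups left out, the median of the list was 0.09, and on leaving out 1 rat it ranged from -1.10 (without control rat 3) to 1.21 (without 4700 kBq rat 3). C cell genes, 16 of which were measured, had a median difference of 0.34, with a range on leaving out 1 rat from -0.26 (without control rat 3) to 1.43 (without 4700 kBq rat 3), and 0 of the 16 had an unadjusted p-value under 0.05 with all rats.

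Because the groups were treated one after the other, clock genes were also examined. *Dbp*, a transcription factor with a strong daily rhythm, had levels of 4.89, 4.43, 6.18 and 4.90 at 4700 kBq and of 4.56, 5.06, 5.76 and 3.71 in the controls, and *Bmal1*, which peaks in the opposite phase, had -1.34, -2.06, -1.23 and -2.67 and -1.54, -0.88, -2.40 and -1.24. Both groups overlapped for both genes, and 0 of 15 measured clock genes had an unadjusted p-value under 0.05, beside 1.37% of all named genes. The 7 clock repressors among them all had positive differences, with a median of 0.50. Their mean level was between -2.99 and -1.21 in the 4700 kBq rats and between -3.42 and -2.07 in the controls, with overlap. Against the mean of the other 7 irradiated groups, in contrast, the 3 probes of *Dbp* were higher and the 2 probes of *Bmal1* lower at adjusted p-values under 0.01.

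In that second comparison, 10 probes were regulated at 4700 kBq at an adjusted p-value under 0.05, 8 higher (0.0263%) and 2 lower (0.00659%), and the same 10 passed under 0.01. Beside the 5 probes of the 2 clock genes they were *Slc4a1* (difference 3.22, SE 0.51), *Svop*, *Pln* (1.84, SE 0.30), 1 probe of *Mdm2* (1.05, SE 0.18) and A_64_P031742 (1.97, SE 0.32). For *Svop* no size is given, since its mean level from 9 to 340 kBq was between -8.92 and -8.00, beside -8.69 in the controls. The controls were not used in this second comparison, but the 4700 kBq rats were the same as above. The irradiated groups were injected in order of activity. Activity and order of injection therefore cannot be told apart in this comparison or in the levels over the irradiated groups. The count was 6 without 4700 kBq rat 1 and 5 without 4700 kBq rat 2.

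*Mdm2* on probe A_44_P634946 was at -0.14 ± 0.39 in the controls, at 0.28 ± 0.27 at 340 kBq, at 0.23 ± 0.39 at 760 kBq, at 0.83 ± 0.20 at 1300 kBq and at 1.23 ± 0.34 at 4700 kBq (mean ± SD, n = 4 each), and its mean level was between -0.03 and 0.02 in the 4 groups from 9 to 260 kBq. On probe A_43_P16885 the mean was -2.52 in the controls and between -2.36 and -2.16 from 9 to 260 kBq. It was -2.01 at 340 kBq, -1.997 at 760 kBq, -1.71 at 1300 kBq and -1.33 at 4700 kBq. *Pln* was at -1.49 ± 0.33 in the controls, -0.93 ± 0.27 at 260 kBq, -1.20 ± 0.53 at 340 kBq, -0.68 ± 0.53 at 760 kBq, -0.52 ± 0.58 at 1300 kBq and 0.77 ± 0.39 at 4700 kBq. In the same 6 groups *Slc4a1* was at -4.18 ± 0.42, -2.66 ± 1.003, -3.71 ± 0.91, -2.86 ± 1.28, -3.03 ± 1.93 and -0.36 ± 0.09. At 9, 88 and 170 kBq the mean level was between -1.46 and -1.23 for *Pln* and between -4.58 and -3.93 for *Slc4a1*. The range of the 1300 kBq rats reached into that of the 4700 kBq rats for *Mdm2* and not for *Pln* or *Slc4a1*, which were higher in every 4700 kBq rat than in any other irradiated rat. *Abcb1b* was at -3.36 ± 0.96 in the controls and at -1.21 ± 0.81 at 4700 kBq, with -2.26 ± 0.43 at 9 kBq, -1.93 ± 0.16 at 760 kBq and -1.76 ± 0.52 at 1300 kBq, and its 4700 kBq range overlapped that of each other group.

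Against 1300 kBq alone, 0 probes were regulated at either adjusted limit (limma, all adjusted p-values at least 0.997). By the unadjusted limit, 9 probes were higher (0.0296%) and 41 lower (0.135%) at 4700 kBq. In this comparison *Slc4a1* differed by 2.68 (unadjusted p = 4.77e-04) and *Pln* by 1.29 (unadjusted p = 0.00276), whereas *Mdm2* on probe A_44_P634946 differed by 0.40 (unadjusted p = 0.103). *Svop* was higher (unadjusted p = 0.00298), and no size is given, since the 1300 kBq rats lay between -8.35 and -4.92, partly at the level of the controls. The count of 50 was 30 without 4700 kBq rat 2 and 192 without rat 3.

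**Figure D5:**
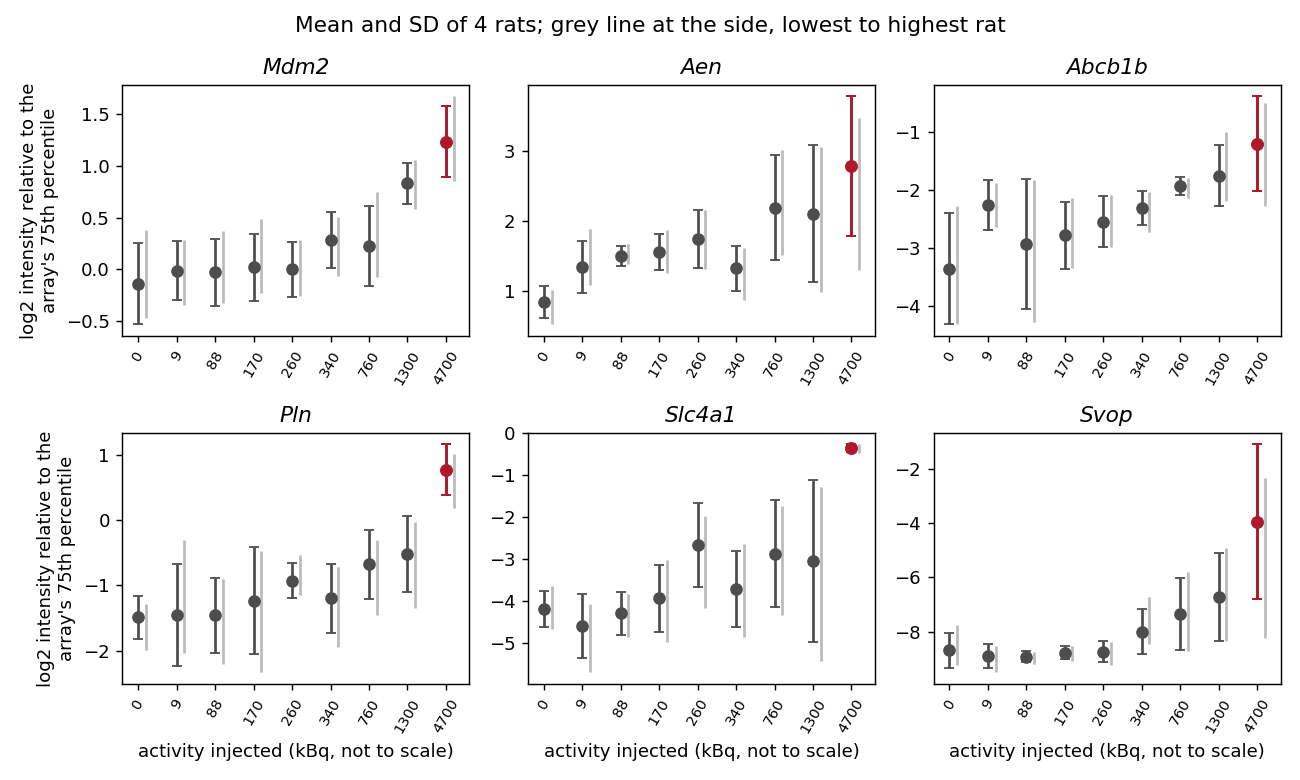
Level (log2 intensity relative to the 75th percentile of the array) of 6 genes over the injected activities in kBq, as mean and SD of 4 rats with the range of the rats as a grey line. *Pln* and *Slc4a1* are highest at 4700 kBq (red) without overlap with the other groups, and *Mdm2* is highest at 4700 kBq and next at 1300 kBq.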

How the data were processed

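RNA of 1 thyroid per rat was measured on 36 Agilent SurePrint G3 1-colour arrays, and groups were taken from the activity in the sample labels. The authors deposited scanner output of Agilent Feature Extraction 10.7.3.1, with a processed signal intensity per spot, and a table of linear intensities that, from its equal quantiles on all arrays, were quantile normalized, which was used as an alternative. Nexus Expression and Partek are named for their analysis.

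Spots called outliers and control spots were left out. The log2 processed intensity minus the 75th percentile of each array was averaged over the spots of a probe. All 36 arrays were fitted with limma 3.58.1 (R 4.3.3), with 1 mean per group, and p-values were adjusted over 30367 probes by the Benjamini-Hochberg method. Each array was 1 rat, so that the spread is that between rats and arrays. A symbol was given to 17998 probes through the table of RefSeq genes, and 12369 probes stayed unnamed.

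The genes described were those past the adjusted limit and those past the unadjusted limit without overlap that were well above background in a group. Up to 4 members of smallest p-value in each of 34 gene lists were also described, as were markers and genes that the study names. Further list members, *Mybl1* and the unnamed probe were added after their values had been seen. The comparison, genes and lists were chosen with earlier results of these data known. The limma fit was tested on simulated data, and the outcome of that test is not given here. Results for some genes are not reported here.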

Additional observations from a re-analysis of the deposited data

Results flagged for a closer look

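In 142 sets of 4 rats, those of 37 probes of 36 genes and 34 lists in both groups, the highest or lowest rat was compared with the other 3 by Dixon's ratio, and 19 sets passed the critical value for 4 samples. Chance gives about 1 in 20.

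Rat 3 of the 4700 kBq group stood apart in 7 of them. It was low for *Svop* (-8.23, others from -2.84 to -2.31), *Pln* (0.19, others from 0.91 to 1.01) and *Cdkn1a* (0.99, others from 4.55 to 4.99). It was also low for the lists of endoplasmic reticulum stress (0.26), follicular cells (-3.61) and thyroglobulin uptake and processing (0.070), and high for the erythroid list (-0.71, others from -2.55 to -2.43). Rat 2 of this group was high for DNA damage signalling and repair (-2.36) and low for adipose tissue (-0.59).

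Control rat 2 was high for *Tp53inp1* (-2.18), *Tpx2* (-1.02), *Cd74* (3.56) and *RT1-DMb* (-0.30). It was also high for the lists of the cell cycle (-0.15, others from -3.21 to -3.14), lymphocytes and thymocytes (0.42, others from -6.70 to -5.75) and MHC class II (-0.60). Control rat 3 was high for squamous epithelium (2.27) and low for glucocorticoid-responsive genes (-0.40), and control rat 4 was high for *Bhmt2* (-4.79).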

How the results depend on the processing

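The 6 probes regulated at an adjusted p-value under 0.05 kept their direction and an unadjusted p-value under 0.01 in every alternative that tested them, and the filter on dim probes tested 5 of them. The count of 6 became 1 with quantile normalization, 0 with median centring, 0 in the authors' matrix, 0 with slide and 0 with scan day as a block, 1 with only the 8 arrays, 41 with array weights, 3 without rat 3 of both groups and control rat 2, and 0 to 5 on leaving out 1 rat. The cause was not tested. At an adjusted p-value under 0.01 the count of 0 became 3 with normexp, 20 with array weights, 1 without rat 3 of both groups, 2 without these and control rat 2, 5 with the follicular list as a covariate and 0 to 2 on leaving out 1 rat. At an unadjusted p-value under 0.01 the count of 89 became 463 with array weights, 148 with the follicular covariate and 63 to 157 on leaving out 1 rat, being 136 without 4700 kBq rat 4 and 157 without control rat 3. Of these probes 84.3% were higher, against 70.8% with quantile normalization, 71.9% in the authors' matrix, 65.2% with only the 8 arrays, 70.4% with array weights, 73.0% without control rat 2 and 60.3% without control rat 1, where 44 probes were higher and 29 lower. On leaving out 1 rat of 4700 kBq, the count against 1300 kBq was 30 to 192 and that against the other 7 activities 5 to 14. The difference of *Dbp* changed from 0.33 to -0.030 without 4700 kBq rat 3 and -0.026 without control rat 4, and was 0.658 without control rat 3. Array weights, whose estimation stopped before convergence, gave 4700 kBq rat 3 a weight of 0.358 and rat 4 of this group 4.03. The alternatives with rat 3 of both groups left out and with the follicular covariate were chosen after seeing the data. Rats of the same number had correlations of deviations of 0.29, -0.01, 0.55 and 0.18 and are not taken as pairs. With the rat number as a replicate block the count at an adjusted p-value under 0.05 was 0 and that at an unadjusted p-value under 0.01 was 95. Probes near background limit the size of the differences of *Svop*, *Grin3a* and *Pdzrn4*.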

Other observations

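Further lists were measured without a member past an unadjusted p-value of 0.05, which 1.37% of all named genes met in either direction. For each, the median difference is given with its lowest and highest value on leaving out 1 rat. Over 20 genes of endoplasmic reticulum stress the median was 0.32, ranging from -0.09 (without control rat 3) to 0.80 (without 4700 kBq rat 3), and the mean level of the list was 1.73, 1.76, 0.26 and 1.90 in the 4700 kBq rats and 1.61, 0.91, 0.21 and 1.68 in the controls. Over 30 genes of oxidative phosphorylation it was -0.16, ranging from -0.51 (without 4700 kBq rat 3) to 0.14 (without 4700 kBq rat 2), with mean levels of 4.59, 3.64, 5.50 and 4.47 and of 4.55, 4.57, 5.53 and 4.29. All 12 genes of fibroblasts and collagen had negative differences with a median of -0.74, ranging from -1.08 (without 4700 kBq rat 3) to -0.25 (without 4700 kBq rat 2), and mean levels of 0.84, -0.70, 1.64 and 0.82 and of 1.28, 1.05, 2.73 and 0.66. Of these 3 lists, that of fibroblasts and collagen kept the direction of its median in every case.

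The 7 clock repressors all had positive differences with a median of 0.50, ranging from -0.08 (without 4700 kBq rat 3) to 0.55 (without control rat 3). It was 0.10 over 26 genes of redox defence, ranging from 0.02 (without control rat 2) to 0.15 (without control rat 3). Over 12 heat shock and cold-inducible genes it was 0.01, ranging from -0.03 (without 4700 kBq rat 4) to 0.12 (without control rat 3). The 16 glucocorticoid-responsive genes had a median of -0.09, ranging from -0.21 (without 4700 kBq rat 3) to 0.16 (without 4700 kBq rat 2), and the 19 immediate early genes one of -0.06, ranging from -0.21 (without 4700 kBq rat 4) to 0.05 (without control rat 2). Over 10 endothelial genes it was 0.08, ranging from -0.11 (without control rat 2) to 0.22 (without control rat 4), and over 10 genes of smooth muscle and nerve 0.27, ranging from -0.31 (without 4700 kBq rat 3) to 0.65 (without 4700 kBq rat 2).

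In the list of thyroglobulin uptake and processing the protease gene *Ctss* had an unadjusted p-value under 0.05 (-0.88, SE 0.42), and differed by -0.49 (unadjusted p = 0.255) without 4700 kBq rat 2. The cartilage list had a median difference of -2.28, ranging from -3.45 (without control rat 1) to -0.99 (without control rat 3) on leaving out 1 rat. Its member *Chad*, a matrix protein gene, differed by -4.13 (SE 1.99) with overlapping groups, and by -2.83 (unadjusted p = 0.214) without rat 3 of both groups.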
